A study of Homo sapiens with 12 samples.

Results

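IFI6, IFI27, IFI35, IFI44, IFI44L, XAF1 and EPSTI1 are 7 interferon-inducible genes of the 39368 symbols counted in CAL27 and HSC3 head and neck squamous carcinoma cells, in which MUC1 was silenced with a doxycycline (DOX)-inducible shRNA. They were taken by symbol from both tables, and they were chosen from their measured levels and responses: the baseline difference between the lines and the DOX response in each line were known when they were picked. Those values are therefore given as a description, with standard errors (SE) and without p-values. RNA-seq had been performed on 3 libraries in each of 4 groups.

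CAL27/tet-MUC1shRNA cells and HSC3/tet-MUC1shRNA cells, both HPV-negative, were each treated for 7 days with vehicle (0.1% DMSO) or with DOX (500 ng/mL). All 4 groups carried the tet-MUC1shRNA vector as a puromycin-selected, transduced population. No DOX-treated library of cells with a control shRNA was analysed here, so the effects of DOX and of MUC1 silencing cannot be told apart. Each line has its own table, so line and table cannot be told apart either. By the study's methods the cells were grown in triplicate cultures, and the errors measure the spread between such cultures of 1 transduced population.

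Interferon-stimulated genes (ISGs) are switched on when type I or III interferon activates the JAK kinases and, through them, the transcription factor complex ISGF3, which holds STAT2 and IRF9. ISGF3 recognizes the interferon-stimulated response element (ISRE), a repeat of GAAA, while the gamma-activated sequence (GAS) serves the response to type II interferon. Tumor cells can express ISGs at a raised level without added interferon.

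Promoter windows were examined for these elements, because ISGF3 acts through the ISRE. RefSeq listed a window of 300 bases, from 250 before to 50 after the transcription start, for all 7 genes, and the window listed first was used. The ISRE core GAAANNGAAA, on either strand, was found in 5 of the 7 windows and in 996 of 27305 promoters of the same length (3.65%). The GAS pattern TTCNNNGAA, which reads the same on both strands, was found in 3 of the 7 and in 2152 of 27305 promoters (7.88%). It lay in IFI27, IFI35 and EPSTI1, and it overlapped an ISRE core in IFI27 and EPSTI1. Of the 23 antiviral ISGs described later, 18 had a window, 13 of these held the ISRE core and 4 held the GAS pattern. The stretches with the ISRE core are shown 5′ to 3′ on the strand of the gene, from GRCh38.p14, with the core in capitals. They lay at chr1:27672256-27672368 on the minus strand (IFI6), chr14:94110608-94110670 on the plus strand (IFI27), chr1:78649751-78649788 on the plus strand (IFI44), chr1:78620264-78620404 on the plus strand (IFI44L) and chr13:42992262-42992311 on the minus strand (EPSTI1).
IFI6: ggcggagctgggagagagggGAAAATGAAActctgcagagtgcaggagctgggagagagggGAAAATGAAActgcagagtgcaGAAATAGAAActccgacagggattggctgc
IFI27: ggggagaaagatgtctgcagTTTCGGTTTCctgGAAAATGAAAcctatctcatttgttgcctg
IFI44: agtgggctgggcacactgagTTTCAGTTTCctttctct
IFI44L: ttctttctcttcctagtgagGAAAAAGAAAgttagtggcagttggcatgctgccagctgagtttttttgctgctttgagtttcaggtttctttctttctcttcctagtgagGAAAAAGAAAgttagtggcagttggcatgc
EPSTI1: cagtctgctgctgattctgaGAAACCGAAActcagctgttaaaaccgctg

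The IFI6 stretch held 3 cores, the IFI27 and IFI44L stretches 2 each, and the IFI44 and EPSTI1 stretches 1 each. In IFI27 the first core, and in IFI44 its single core, lay on the opposite strand. The cores of IFI44L sat in 2 identical runs of 50 bases. In GENCODE v44 the IFI6 and IFI44 stretches lay upstream of the gene, the IFI27 stretch lay in an intron of its longest span, 23 of the 141 bases of the IFI44L stretch were exonic, and 10 of the 50 bases of the EPSTI1 stretch were in its first exon. IFI35 and XAF1 had no ISRE core in these windows, and XAF1 had no GAS pattern. A match describes letters in the window and is not a measured binding site.

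**Figure D1:**
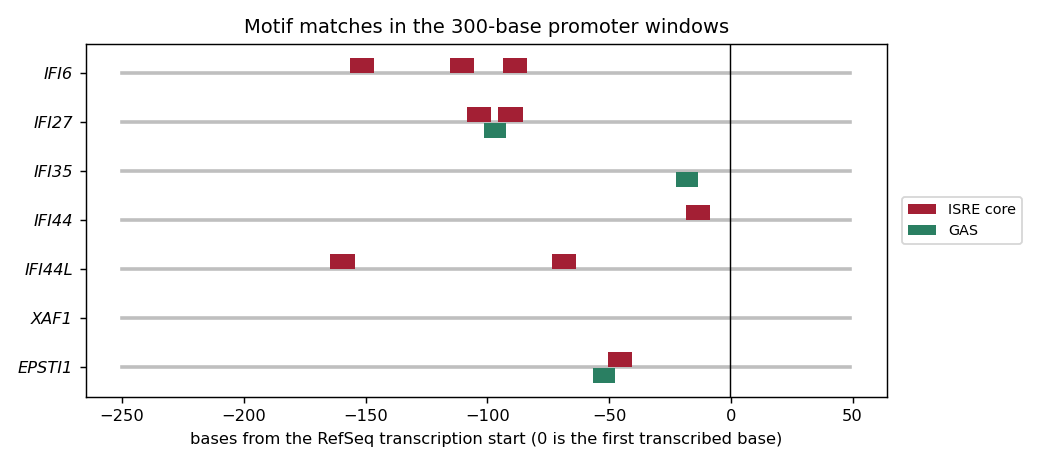
Positions of the ISRE core (red, above each line) and the GAS pattern (green, below) in the promoter window of each gene, in bases from the RefSeq start on the horizontal axis. The 9 ISRE cores lie upstream of the start in 5 genes, and the XAF1 window has neither motif.

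The depth of the 12 libraries ran from 89730914 to 169065103 counts. Several counts could stand for 1 molecule: the estimate was 2.39 to 3.24 counts per molecule in CAL27 libraries, 4.14 to 7.30 with vehicle in HSC3 cells and 7.54 to 15.4 with DOX in HSC3 cells, where replicate 1 was the highest. MUC1, the targeted gene, was 55.3 ± 2.79 CPM (counts scaled to a common library size; mean ± SD, n = 3) with vehicle and 2.98 ± 0.249 CPM with DOX in CAL27. Its HSC3 levels were 1.76 ± 0.186 and 0.237 ± 0.0928 CPM, respectively. All 6 squamous epithelial markers were present in every group, and their summed level was 5723 to 5969 CPM with vehicle and 2773 to 2952 CPM with DOX in CAL27 cells, and 5258 to 5861 CPM and 2329 to 2675 CPM in HSC3 cells. The lower sums came from the 4 markers called lower in both lines, KRT5, KRT14, KRT6A and TP63, whereas EPCAM had log2 fold changes of 0.40 in CAL27 and 0.87 in HSC3 cells (adjusted p = 6.72e-06 and 2.81e-05), short of the fold threshold, and CDH1 of 0.03 and -0.02 (adjusted p = 0.517 and 0.865). The 8 markers of blood, endothelial and stromal cells summed to 5.34 to 14.5 CPM over all libraries, with CD3E and DCN among those at 0 in HSC3 cells with vehicle. The highest with vehicle were COL1A1 and CD14, at 8.40 and 4.70 CPM in CAL27 and 4.59 and 1.03 CPM in HSC3 cells. Of 4 tested with DOX in CAL27 cells, 1 was called lower, PDGFRB, at a log2 fold change of -1.02 (adjusted p = 0.00518). None of 2 tested in HSC3 cells was called, with COL1A1 at 0.73 (adjusted p = 0.00891). The part of these shifts in the results was not tested. Levels are CPM scaled by TMM (trimmed mean of M-values) over all 12 libraries, and log2 fold changes come from the edgeR fit of the libraries compared.

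All 7 genes passed the filter on low counts in every fit. Calls required an adjusted p below 0.05 together with a log2 fold change of more than 1 in either direction. With DOX in CAL27 cells, 7 of the 7 genes were called lower, where 5.11% of all 19239 genes tested were called lower and 1.31% higher. In HSC3 cells, 5 of the 7 were called lower and none higher, where 4.40% of 18021 genes were called lower and 1.58% higher. IFI35 and EPSTI1 were not called in HSC3 cells. The median log2 fold change of the 7 was -2.81 in CAL27 and -1.85 in HSC3 cells, beside -0.0052 and -0.0097 over all genes tested. Every DOX library lay below every vehicle library for 7 of the 7 genes in CAL27 cells, as it did for 25.9% of all genes, and for 6 of the 7 in HSC3 cells, as it did for 22.5% of all genes. Since these contrasts chose the genes, nothing is read from the counts. In bulk RNA, fewer cells that express a gene and less of its RNA in each cell cannot be told apart.

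**Figure D2:**
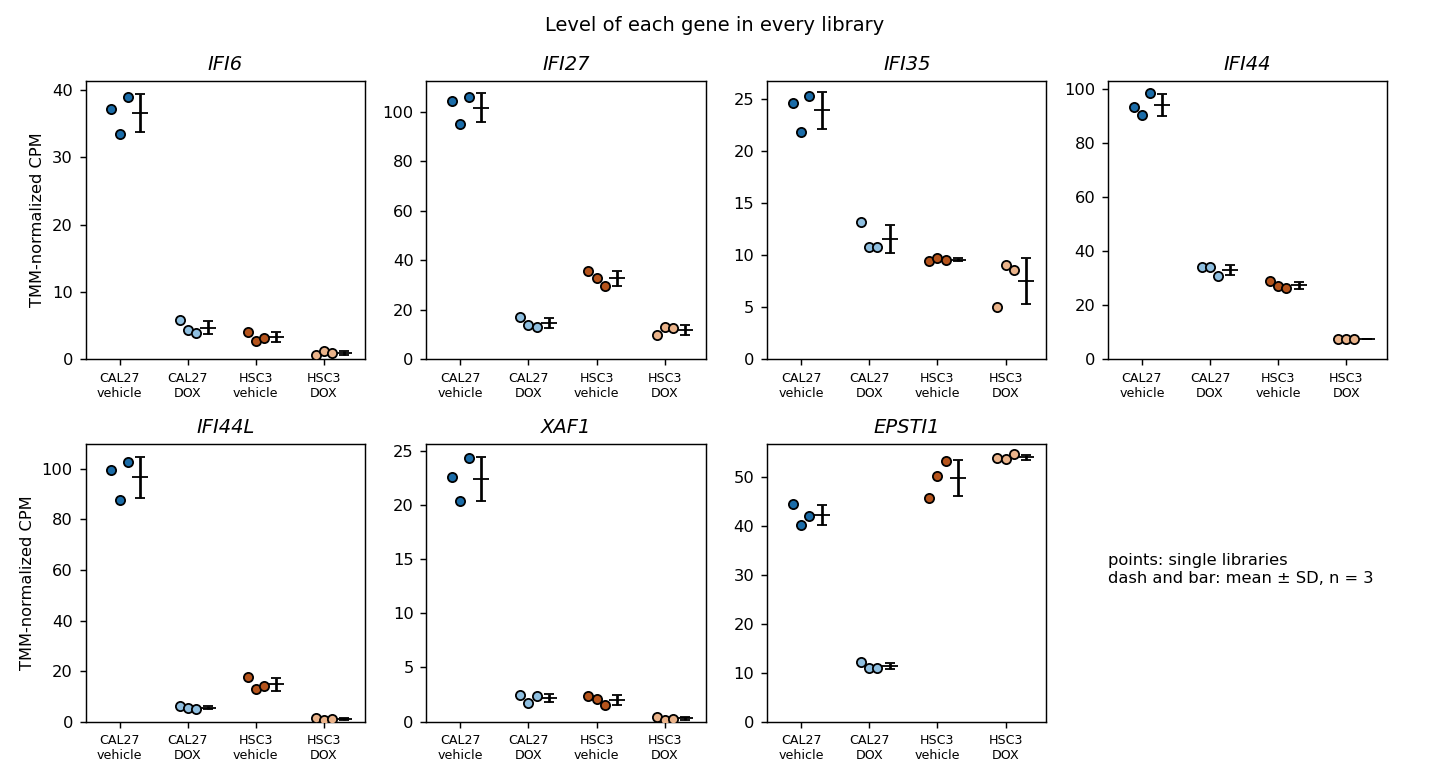
Level of each gene in CPM (vertical axis, from 0) in the 12 libraries, by line and treatment, with the mean and SD of each group of 3. The DOX libraries lie below the vehicle libraries in both lines for 6 of the 7 genes, and EPSTI1 in HSC3 cells is the exception.

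IFI6 and IFI27 belong to the same family of small, hydrophobic interferon-induced proteins. IFI6, which lies at chr1:27666064-27672212 on the minus strand, encodes a membrane protein known for protecting cells from apoptosis and for restricting flavivirus replication. In CAL27 cells its level was 37.2, 33.4 and 39.1 CPM with vehicle and 5.76, 4.30 and 3.91 CPM with DOX. In HSC3 cells it was 4.04, 2.63 and 3.08 CPM with vehicle and 0.667, 1.17 and 0.876 CPM with DOX. The DOX libraries were the low ones in both lines, and the CAL27 libraries with DOX overlapped the HSC3 libraries with vehicle. The log2 fold change was -2.98 (SE 0.128) in CAL27 cells, leaving 12.7% of the vehicle level, and -1.85 (SE 0.278) in HSC3 cells, leaving 27.8%. The HSC3 libraries with DOX rested on 99, 158 and 106 counts, which correspond to an estimated 6.43, 21.0 and 10.4 molecules. LINC02574, a gene on the same strand, covers 23.1% of the exonic bases of IFI6, and the handling of reads shared between genes is not given in the sources used here.

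IFI27, at chr14:94104836-94116695 on the plus strand, encodes a mitochondrial protein and is widely used as a marker of an interferon response. Its level in CAL27 cells was 104, 95.2 and 106 CPM with vehicle and 16.9, 14.0 and 12.8 CPM with DOX. In HSC3 cells it was 35.5, 33.0 and 29.6 CPM with vehicle and 9.59, 13.2 and 12.5 CPM with DOX. The vehicle groups stood well apart from each other, whereas the DOX groups of the 2 lines overlapped. Its log2 fold change was -2.81 (SE 0.0904) in CAL27 and -1.48 (SE 0.132) in HSC3 cells, or 14.3% and 35.8% of the vehicle level. IFI27L1 and IFI27L2, its relatives on the same chromosome, were not called in either line, with log2 fold changes of 0.07 and -0.09 in CAL27 cells (adjusted p = 0.829 and 0.663) and -0.02 and 0.18 in HSC3 cells (adjusted p = 0.984 and 0.609).

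IFI44 and IFI44L are neighboring paralogs on chromosome 1, both known as cytoplasmic proteins induced by interferon. IFI44L (chr1:78619902-78646145) ends 3650 bases before IFI44 (chr1:78649796-78664078), and both are on the plus strand. IFI44 was 93.4, 90.6 and 98.5 CPM with vehicle and 34.09, 33.98 and 30.67 CPM with DOX in CAL27. The HSC3 libraries had 28.8, 27.2 and 26.2 CPM with vehicle and 7.43, 7.38 and 7.34 CPM with DOX. The 4 groups of IFI44 did not overlap, and the 3 HSC3 libraries with DOX were nearly equal. Its log2 fold change was -1.52 (SE 0.0485) in CAL27 and -1.90 (SE 0.0959) in HSC3 cells, which left 34.9% and 26.9% of the vehicle level.

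IFI44L was 99.7, 87.6 and 103 CPM with vehicle and 6.06, 5.49 and 5.06 CPM with DOX in CAL27 cells. Its HSC3 levels were 17.6, 12.9 and 14.0 CPM with vehicle and 1.56, 0.749 and 1.26 CPM with DOX. No groups overlapped, and the order was CAL27 with vehicle, HSC3 with vehicle, CAL27 with DOX and HSC3 with DOX. The log2 fold change of -4.13 (SE 0.07) in CAL27 cells and of -3.64 (SE 0.245) in HSC3 cells was the lowest of the 7 genes in each line, leaving 5.703% and 8.004% of the vehicle level. The HSC3 libraries with DOX rested on 232, 101 and 152 counts, an estimated 15.1, 13.4 and 14.9 molecules. With DOX, then, IFI44L kept a smaller share of its vehicle level than its neighbor IFI44 in both lines. Over the 12 libraries, the log2 profiles of the neighbors, each centered on its own mean, differed by a root mean square of 1.17, which was larger than the difference of 0.584 between IFI44L and XAF1 on another chromosome.

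XAF1, at chr17:6755447-6775647 on the plus strand, encodes a proapoptotic protein that binds and antagonizes the caspase inhibitor XIAP. Its level in CAL27 cells was 22.6, 20.3 and 24.3 CPM with vehicle and 2.46, 1.77 and 2.33 CPM with DOX. In HSC3 cells it was 2.41, 2.08 and 1.499 CPM with vehicle and 0.472, 0.186 and 0.298 CPM with DOX. The CAL27 libraries with DOX and the HSC3 libraries with vehicle overlapped, and the HSC3 libraries with DOX were the lowest. The log2 fold change was -3.36 (SE 0.101) in CAL27 and -2.65 (SE 0.385) in HSC3 cells, or 9.757% and 15.97% of the vehicle level. The HSC3 libraries with DOX held 70, 25 and 36 counts, an estimated 4.55, 3.32 and 3.52 molecules, so the size of the HSC3 change is imprecise. It was -3.05 without HSC3 DOX replicate 1 and -2.37 without replicate 2. XIAP itself was not called, with a log2 fold change of -0.03 (adjusted p = 0.567) in CAL27 cells and 0.33 (adjusted p = 0.00912) in HSC3 cells. PRAL, on the opposite strand, covers 38.3% of the exonic bases of XAF1 and had 66 to 102 counts with vehicle in CAL27 cells. The use of strand in counting is not given in the sources used here, so reads of the 2 genes may not be separable in that part.

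IFI35, at chr17:43006740-43014456 on the plus strand, encodes a cytoplasmic protein that pairs with NMI and is known for modulating innate immune signaling. In CAL27 cells its level was 24.6, 21.9 and 25.3 CPM with vehicle and 13.2, 10.8 and 10.8 CPM with DOX. In HSC3 cells it was 9.45, 9.69 and 9.51 CPM with vehicle and 4.96, 9.02 and 8.54 CPM with DOX. The CAL27 groups were clearly separate, whereas in HSC3 cells 2 DOX libraries sat just under the vehicle libraries and replicate 1, the library with the most counts per molecule, was far lower. This gave a log2 fold change of -1.05 (SE 0.0752) in CAL27 cells, leaving 48.3% of the vehicle level, and -0.35 (SE 0.201) in HSC3 cells, leaving 78.4%. Without HSC3 DOX replicate 1 the HSC3 value was -0.12. NMI was not called in either line, with log2 fold changes of -0.33 in CAL27 (adjusted p = 5.97e-05) and 0.34 in HSC3 cells (adjusted p = 0.0107).

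EPSTI1, at chr13:42886388-42992271 on the minus strand, was first described as a gene that epithelial cancer cells express on contact with stromal fibroblasts, and it is also interferon-inducible. In CAL27 cells its level was 44.4, 40.1 and 42.0 CPM with vehicle and 12.18, 10.98 and 10.99 CPM with DOX. In HSC3 cells it was 45.7, 50.1 and 53.1 CPM with vehicle and 53.8, 53.5 and 54.5 CPM with DOX. The HSC3 groups did not overlap, but the nearest libraries were less than 1 CPM apart and the DOX libraries were the higher ones. The log2 fold change was -1.89 (SE 0.0569) in CAL27 cells, leaving 26.9% of the vehicle level. In HSC3 cells it was 0.12 (SE 0.077), at 108%, and EPSTI1 was not called. EPSTI1 was thus the only one of the 7 genes with a higher mean in HSC3 cells with DOX than with vehicle.

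**Figure D3:**
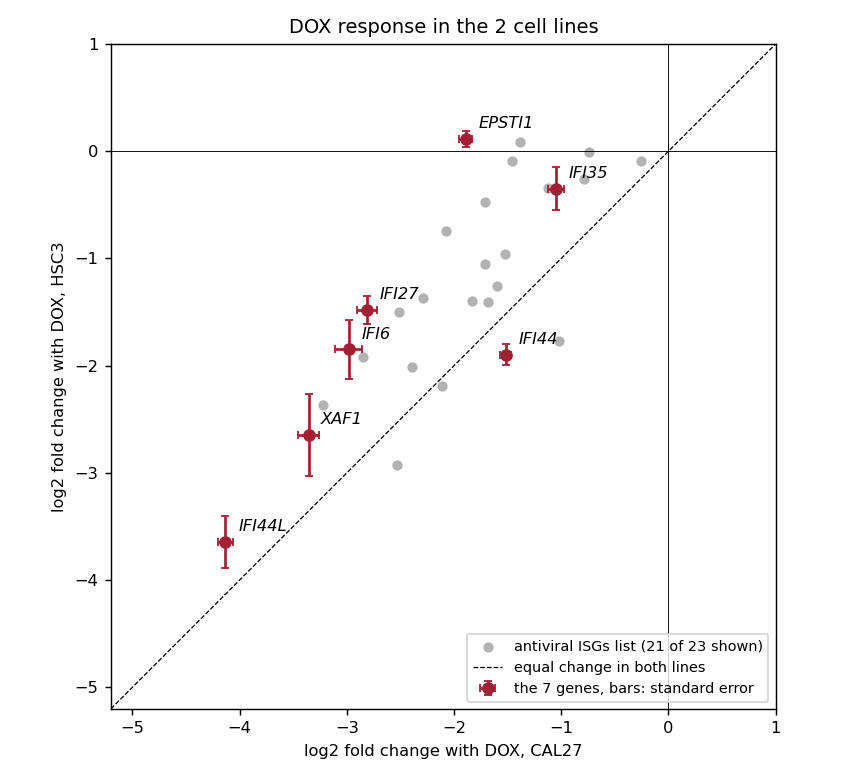
DOX response as a log2 fold change, with CAL27 on the horizontal axis and HSC3 on the vertical axis, for the 7 genes (red, bars: SE) and for 21 of the 23 antiviral ISGs (grey), with a dashed line where both are equal. OASL and CMPK2 fall below the plotted range. EPSTI1 lies at -1.89 and 0.12, away from the dashed line, and IFI44 is the only one of the 7 genes under it.

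The difference between the lines in the DOX response was taken as the HSC3 log2 fold change minus that in CAL27 cells, from the interaction term of a fit of all 12 libraries. It was called higher for 3 of the 7 genes (less of a decrease in HSC3 cells), where 2.19% of 20694 genes were called higher, and none of the 7 was called lower. The difference was 2.01 (SE 0.0986) for EPSTI1, 1.33 (SE 0.166) for IFI27 and 1.12 (SE 0.274) for IFI6. IFI6 was no longer called without HSC3 DOX replicate 2, at 0.88, or without HSC3 vehicle replicate 2. The differences that were not called were 0.73 (SE 0.341) for XAF1, 0.70 (SE 0.234) for IFI35, 0.49 (SE 0.246) for IFI44L and -0.38 (SE 0.0901) for IFI44. IFI44 was the only gene with a lower fold change in HSC3 than in CAL27 cells. XAF1 was called without HSC3 DOX replicate 2, at 1.005, and was 0.33 without HSC3 DOX replicate 1. IFI44L was 0.25 without HSC3 DOX replicate 1 and 0.74 without replicate 2. The median difference was 0.73 for the 7 genes and -0.0224 for all genes tested.

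Without DOX, 6 of the 7 genes were called different between the lines. With vehicle, these 6 were called lower in HSC3 than in CAL27 cells, where 20.5% of 19410 genes were called lower. For the same 6, every HSC3 library lay below every CAL27 library, as it did for 40.7% of all genes. The log2 difference, HSC3 minus CAL27, was -3.49 (SE 0.142) for XAF1, -3.48 (SE 0.124) for IFI6 and -2.70 (SE 0.101) for IFI44L. It was smaller in size for IFI44 at -1.78 (SE 0.0521), IFI27 at -1.64 (SE 0.0659) and IFI35 at -1.32 (SE 0.0733). EPSTI1 was not called, at 0.24 (SE 0.0613). Its HSC3 vehicle libraries all lay above its CAL27 vehicle libraries, the nearest at 45.7 and 44.4 CPM. The share of all genes with every HSC3 library higher was not counted. The sign of the EPSTI1 difference depended on the scaling, being -0.035 when libraries were scaled by their totals. The median over all genes was -0.0959, and that scaling moved it by -0.273. This contrast, too, was used in choosing the genes, and nothing is read from the counts. The baseline comparison shares its vehicle libraries with the DOX comparisons.

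Taken as group means relative to CAL27 cells with vehicle, the order of the groups differed between genes. Vehicle-treated HSC3 cells held 8.89% of the CAL27 level of IFI6 and 8.91% of that of XAF1, close to the 12.7% and 9.75% that CAL27 cells held with DOX. IFI44 stood at 29.1% in HSC3 cells with vehicle and 35.0% in CAL27 cells with DOX, and IFI35 at 39.9% and 48.5%. By contrast, IFI27 and IFI44L were higher in HSC3 cells with vehicle (32.1% and 15.3%) than in CAL27 cells with DOX (14.3% and 5.73%). EPSTI1 was at 118% in HSC3 cells with vehicle and 27.0% in CAL27 cells with DOX. Percentages of the HSC3 groups depend on the scaling between the lines. With library totals the EPSTI1 log2 difference between the vehicle groups was -0.035. HSC3 cells with DOX held the lowest mean of 6 genes, from 1.23% for IFI44L to 31.4% for IFI35, and the highest of EPSTI1, at 128%.

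**Figure D4:**
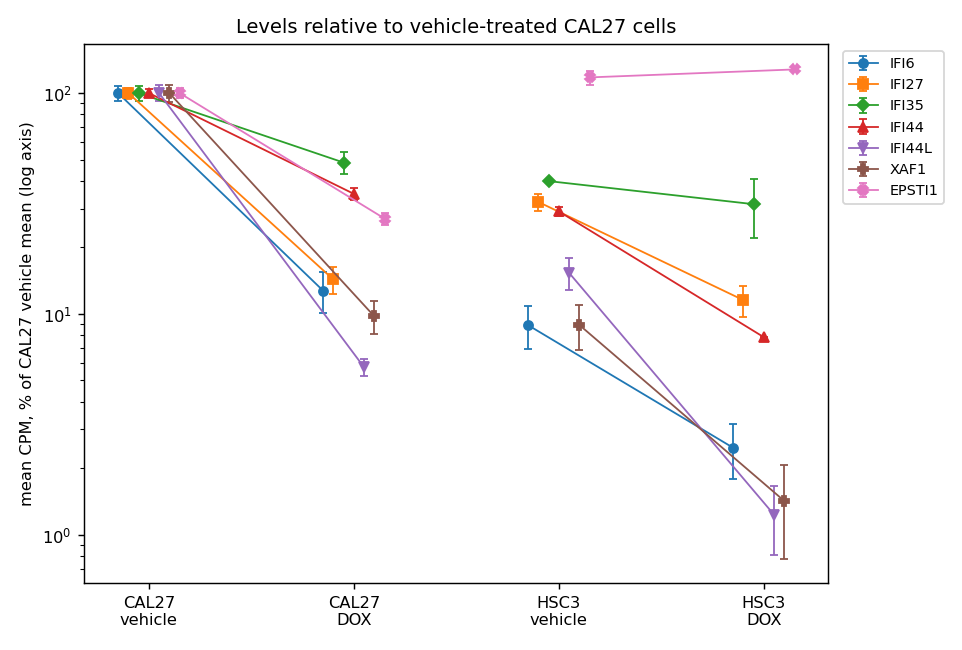
Mean level of each gene in the 4 groups as a percentage of its mean in CAL27 cells with vehicle (log axis, bars: SD of 3 libraries), with lines joining vehicle and DOX within a cell line. With TMM scaling, EPSTI1 alone is above 100% in HSC3 cells, and XAF1 and IFI6 nearly coincide in CAL27 cells with DOX and HSC3 cells with vehicle.

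Levels were compared between genes only per length. In CAL27 cells with vehicle, the mean level in CPM per kilobase of all annotated exonic sequence was 46.2 for IFI44, 39.1 for IFI6, 24.6 for IFI27, 12.2 for IFI35, 8.57 for EPSTI1, 8.33 for IFI44L and 3.39 for XAF1. Per kilobase of the canonical transcript, the order changed, since IFI27 came first at 140 CPM per kilobase, followed by IFI44 at 56.0 and IFI6 at 45.0. XAF1 was the lowest on both length scales, at 6.56 CPM per kilobase of its canonical transcript.

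The other genes of the pathway were grouped by role, in lists written with earlier results of these data known. Of 7 interferon ligand genes, 3 passed the filter in CAL27 and 2 in HSC3 cells, and none was called. IFNL1, a type III interferon, had the lowest CAL27 value, a log2 fold change of -2.03 (adjusted p = 0.0694) on 0 to 18 counts a library, and IFNE the highest, at 0.33 (adjusted p = 0.272). Of 12 receptor and JAK-STAT genes, 3 were called lower in CAL27 and 2 in HSC3 cells. STAT2 fell in CAL27 cells, with a log2 fold change of -1.14 (adjusted p = 8.88e-15), and was -0.29 in HSC3 cells (adjusted p = 0.0175). IRF9 fell in CAL27 cells, at -3.22 (adjusted p = 0.00115), but had only 0 to 30 counts a library there, and it was -0.72 in HSC3 cells (adjusted p = 0.705). Another gene on the same strand covers 23.9% of the exonic bases of IRF9 and one on the opposite strand 8.05%, so these counts may not measure all of its RNA. JAK2 was the highest in CAL27 cells, at 0.02 (adjusted p = 0.825).

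Of 4 IRF factors, 1 was called lower in CAL27 cells and none in HSC3 cells. It was IRF7, which amplifies interferon production, at -1.84 (adjusted p = 3.25e-11), whereas IRF3 was -0.16 (adjusted p = 0.00996). Of 3 feedback inhibitors, 2 were called lower in CAL27 cells, and SOCS3 was called higher in HSC3 cells, at 1.21 (adjusted p = 2.43e-06). SOCS1, which blocks JAK activity, was -1.52 (adjusted p = 3.14e-06) and SOCS3 0.35 (adjusted p = 0.00025) in CAL27 cells. Of 9 nucleic acid sensors and adaptors, 5 were called lower in CAL27 and none in HSC3 cells. DHX58, a regulator of RNA sensing, was the lowest in CAL27 cells, at -1.79 (adjusted p = 2.12e-12), and the kinase TBK1 the highest, at 0.14 (adjusted p = 0.00587).

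Of 23 antiviral ISGs, 20 were called lower in CAL27 and 13 in HSC3 cells, and none was called higher. Their median log2 fold change was -1.71 in CAL27 and -1.37 in HSC3 cells, nearer 0 than the medians of the 7 genes in both lines. MX2, an interferon-induced GTPase that restricts retroviruses, was the lowest in CAL27 cells, at -3.22 (adjusted p = 2e-05), and IFITM2 the highest, at -0.26 (adjusted p = 0.000102). The 7 genes were chosen with these DOX responses known, so nothing is read from how their medians compare with those of the list. The differences between these lists were not tested.

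The genes with the nearest profile were sought among 11667 genes as the 3 with the smallest root mean square difference in centered log2 CPM over the 12 libraries. MX1 (0.245), MX2 (0.332) and TNFSF10 (0.389) were nearest to IFI6, and MX2 (0.397), MX1 (0.421) and TNFSF10 (0.512) to XAF1. IFI44L had XAF1 (0.584), MX2 (0.615) and MX1 (0.871). OAS2 (0.284), DDX60 (0.346) and PLA2R1 (0.423) were nearest to IFI27. The other 3 genes had no listed antiviral ISG among their nearest. These were ACKR3 (0.114), NFASC (0.201) and PRRG4 (0.217) for IFI44, SREBF1 (0.13), KCNC4 (0.203) and BTN3A1 (0.203) for IFI35, and WNT10A (0.261), FOXQ1 (0.285) and BARX2 (0.34) for EPSTI1. In all, 8 of the 21 places were held by listed antiviral ISGs and 1 by another of the 7 genes, and 5 of the 21 were also found by Pearson correlation. The listed antiviral ISGs among the 11667 genes were not counted. The 7 genes and the list were chosen with results from these libraries known, so nothing is read from the number of places. Among the 7 genes, IFI6 and XAF1 were the closest pair (0.57) and XAF1 and EPSTI1 the farthest (2.48).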

How the data were processed

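RNA from the CAL27 and HSC3 lines with the inducible MUC1 shRNA was sequenced in 3 libraries for each of 4 groups. The authors deposited 1 table of raw counts per gene symbol for each line, not normalized. The submitters' processing notes name FastQC 0.11.9, STAR 2.7.9a, Subread 2.0.1, featureCounts and GRCh38; the annotation and the use of strand, duplicates and multiply mapped reads are not given in the sources used here. The CAL27 DOX columns carry the numbers 4 to 6, so they were mapped to their group without a replicate number.

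The genes and lists were chosen with earlier results of these data known. All 7 genes are named, with MUC1, STAT2, IRF9, the lowest and highest tested gene of each pathway list in CAL27 cells, all relatives and partners, and the 3 genes nearest in profile among those whose log2 CPM averaged 1 or more. OASL and CMPK2 were named after their values were seen, since they lie outside a plotted range. COL1A1, CD14 and PDGFRB were also named after their values were seen. Some genes of the lists are not reported here.

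Counts were fitted in R 4.3.3 with edgeR 4.0.16 (TMM, filterByExpr with a minimum count of 10 and a minimum total of 15, robust quasi-likelihood test, Benjamini-Hochberg adjustment over all genes tested). The SE is the size of the log2 fold change divided by the square root of the F statistic. Alternatives were DESeq2 1.42.0, other scalings and filters, a fold threshold of 1.5, 1 fit of 12 libraries, a replicate block, counts divided by counts per molecule, and each library left out. The number of counts per molecule was estimated in each library from the share of zeros among genes with an expected count of 8 to 16. Replicates were not duplicates of each other: 0.412% to 1.27% of genes had equal counts. Positions, lengths and overlaps are from GENCODE v44 (GRCh38), and promoters are from RefSeq (GRCh38.p14). Of the 39368 symbols, 38934 matched a current gene symbol.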

Additional observations from a re-analysis of the deposited data

Results flagged for a closer look

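The DOX response of 3 genes differed between the lines by the interaction term of the edgeR fit across all genes, and these contrasts had been used in choosing the genes. The HSC3 minus CAL27 difference of the log2 fold change was 1.12 for IFI6, 1.33 for IFI27 and 2.01 for EPSTI1. IFI6 and IFI27 were lower with DOX in every library of both lines, and EPSTI1 in every CAL27 library. Such a separation held for 25.9% of all genes in CAL27 and 22.5% in HSC3 cells. EPSTI1 in HSC3 cells was not called, at 0.12 (SE 0.077). Its nearest HSC3 libraries were 53.1 CPM with vehicle and 53.5 CPM with DOX. The share of all genes with every DOX library higher was not counted.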

How the results depend on the processing

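The genes called among the 7 were the same in CAL27 cells (7), in HSC3 cells (5) and between the vehicle-treated lines (6) under every alternative run. IFI35 in CAL27 cells was close to the fold threshold, at -1.05, and at -1.001 without CAL27 DOX column 6. For the difference between lines, IFI35 was gained with a fold threshold of 1.5, IFI6 was lost without HSC3 vehicle replicate 2 and without HSC3 DOX replicate 2, and XAF1 was gained without the latter. Of 441 single values of the 7 genes under alternatives, 426 moved by less than 1 SD of the replicates, and 1 changed sign, EPSTI1 between the vehicle-treated lines at -0.035 with library totals. Leaving out 1 CAL27 library moved the median of the 7 in CAL27 cells between -2.929 and -2.723. Over all genes, 1236 were called in CAL27 cells, 2562 with a fold threshold of 1.5 and 742 in 1 fit of 12 libraries; for HSC3 cells these were 1077, 2312 and 1782, and for the difference between lines 1078 became 2232 with a fold threshold of 1.5. The cause was not tested, apart from the lower threshold, which admits more genes. The replicate block gave 1005 genes called in HSC3 cells and a median of -1.859 for the 7, and 6515 between the vehicle-treated lines (6739 without it). Deviations from the group mean in same-numbered HSC3 vehicle and DOX libraries had correlations of -0.191, 0.336 and -0.327. Pairs with different numbers ran from -0.427 to 0.467. Deviations balance out within each group of 3 libraries, so these values cannot decide whether same-numbered libraries were paired. Same-numbered vehicle libraries of the 2 lines, with 0.099, 0.139 and 0.196, come from different lines. No paired analysis was possible in CAL27 cells or for the difference between lines because the CAL27 DOX columns carry no replicate number. The HSC3 libraries with DOX had the highest totals, but an estimated 3.32 to 21.0 molecules of IFI6, IFI44L and XAF1. That estimate is approximate. Its expected counts came from the other libraries of the line, vehicle and DOX together. Genes that are lower in 1 group can therefore add zeros and raise the counts per molecule.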
